A study of Sus scrofa with 12 samples.

Results

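MicroRNA-named loci are the transcribed regions of the pig ovary whose annotation carries the name of at least 1 pig microRNA. Of 29150 loci with counts, 209 had such a name. The 73 with a mean of 10 or more counts over the libraries were analysed, among 23818 loci past the same minimum. Of the 73, 51 also carried a further gene name and are called host loci, and 22 carried microRNA names alone and are called stand-alone loci. The ovaries came from 12 New French Yorkshire gilts (Sus scrofa) of a single farm, bred as purebreds, and the left ovary of each was sequenced. The 6 ES gilts had 2 consecutive estrus cycles on record, with detection started at 165 days of age, and were killed in their next estrus. The 6 NES gilts were their full sisters, with no estrus recorded. No gilt received a treatment or carried an engineered allele according to the sources used here, and the age at slaughter is not given in them. Each library came from the whole ovary of a separate gilt and therefore mixes all of its cell types.

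A microRNA begins as a hairpin inside a longer primary transcript. Drosha and DGCR8 cut the hairpin out in the nucleus, exportin-5 carries it to the cytoplasm, Dicer trims it to a short duplex, and an Argonaute protein uses a single strand of it to repress messenger RNAs with matching sites. Many hairpins sit in introns of protein-coding genes and share the host's transcription, while others have long noncoding transcripts of their own. In the ovary microRNAs are known to act in granulosa cell proliferation, in the response to luteinising hormone and in luteal vessels. The libraries were made from total RNA depleted of ribosomal RNA and most of the kept loci are long, so the values below describe the transcripts that hold the hairpins and not the mature microRNAs.

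Most of the kept loci were long. The host loci spanned 7415 to 471752 bases, with a median of 59687, and the stand-alone loci 72 to 116556 bases, with a median of 8964. RefSeq places 82 hairpins inside 64 of the 73 loci. The C9orf3 locus, named for MIR27B and mir-23b, held 3 of them (MIR24-2, MIR27B and MIR23B), the most of any kept locus. Among the 22 stand-alone loci, 13 overlap a protein-coding RefSeq gene (strand not compared), 3 overlap only another RefSeq gene and 6 overlap none, namely those of mir-155, mir-16-2/mir-15a, mir-212, mir-503/mir-424, mir-202 and the short locus of mir-9808. Where further names count only if they are neither bare Ensembl identifiers nor small RNA families, the division becomes 42 host and 31 stand-alone loci.

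The 136 named loci under the minimum were all stand-alone, and 135 of them spanned at most 150 bases, about the length of a hairpin. Their median was 0.875 counts per library. Just inside the minimum lay mir-9823 with a mean of 13.0 counts, mir-181b-2 with 14.9 and mir-9794 with 21.6. Just outside it lay mir-378-2 with 8.67. The microRNA in the study's title, mir-130b, was among those left out. Its locus spans 80 bases on chromosome 14 (50245041 to 50245120, minus strand, Sscrofa11.1) and collected 0 counts in all 6 ES libraries, 1 count in each of NES1 and NES2 and 0 in the other 4 NES libraries. These 2 counts are too few to compare the groups: an exact two-sided permutation test on log2(CPM + 0.5) gave p = 0.455, the smallest it can give with 1 count in each of 2 libraries.

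Libraries held 58140547 to 68961955 counts over all loci, and the 73 kept loci took 1.60 to 2.45% of them. A total of 0 counts in a library allows a level of up to 0.0422 to 0.0522 CPM (counts scaled to library size), for counting error only. The summed markers of each listed cell type were above 0 CPM in every library. Single markers were at 0 CPM in some, as NOBOX in ES2 and KRT18 in ES4 and NES3. Several libraries stood apart. ES3 had a summed level of macrophage markers of 978 CPM, where the other 11 libraries did not exceed 122, and its sums of granulosa (417 CPM) and theca (113 CPM) markers were the lowest of all. In ES1 the luteal markers summed to 5198 CPM, against 449 to 737 in NES, and in ES6 the epithelial markers summed to 243 CPM, against 3.65 to 18.3 in NES. Proliferation markers summed to 26.6 to 75.0 CPM in ES and 69.0 to 319 CPM in NES. Of these, 5 of 5 measured ones fell in ES (edgeR's quasi-likelihood test, Benjamini-Hochberg adjusted p under 0.05), against 0.546% of all loci. In the same test 3 of 6 measured theca markers fell (HHIP, GLI1 and PTCH1). Another 2 theca markers had positive differences (CYP17A1 and LHCGR), neither called. In whole ovaries fewer cells of a type and less RNA per cell cannot be told apart.

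The contrast of ES with NES sets ovaries at estrus against those of full sisters in which none was recorded. At the microRNA-named loci little passed the test. SMC4 with mir-16-1 fell, from a mean of 82.1 CPM in NES to 43.3 CPM in ES, and no kept locus rose. Log2 differences (ES minus NES) ran from -0.92 for that locus to 1.64 for mir-9831, around a median of 0.01. With edgeR's quasi-likelihood test, adjusted by Benjamini and Hochberg over all 23818 loci, 1 of the 73 was called, 1.37%, against 0.63% of all loci tested, so that the member share rests on a single locus. It was 1 of 51 host loci and 0 of 22 stand-alone loci. Of the 150 calls over all loci, 130 were lower in ES (0.546% of loci) and 20 higher (0.084%).

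The smaller p-values gave the same picture. Unadjusted p-values under 0.05 occurred at 12 of the 73 loci (16.4%), 6 higher and 6 lower in ES, against 16.5% of all loci. They occurred at 8 of the 51 host loci and at 4 of the 22 stand-alone loci. DESeq2 called 3 of the 73 against 4.92% of all loci, and 0 of those were stand-alone. At 43 of the 51 host loci the difference was within 0.3 on the log2 scale in either direction, as it was at 13 of the 22 stand-alone loci and at 58.5% of all loci. These shares compare loci of unlike level, with a median of 8004 mean counts for host, 472 for stand-alone and 529 for all loci. The median difference was 0.01 for host loci, 0.10 for stand-alone loci and 0.05 for all loci.

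**Figure D1:**
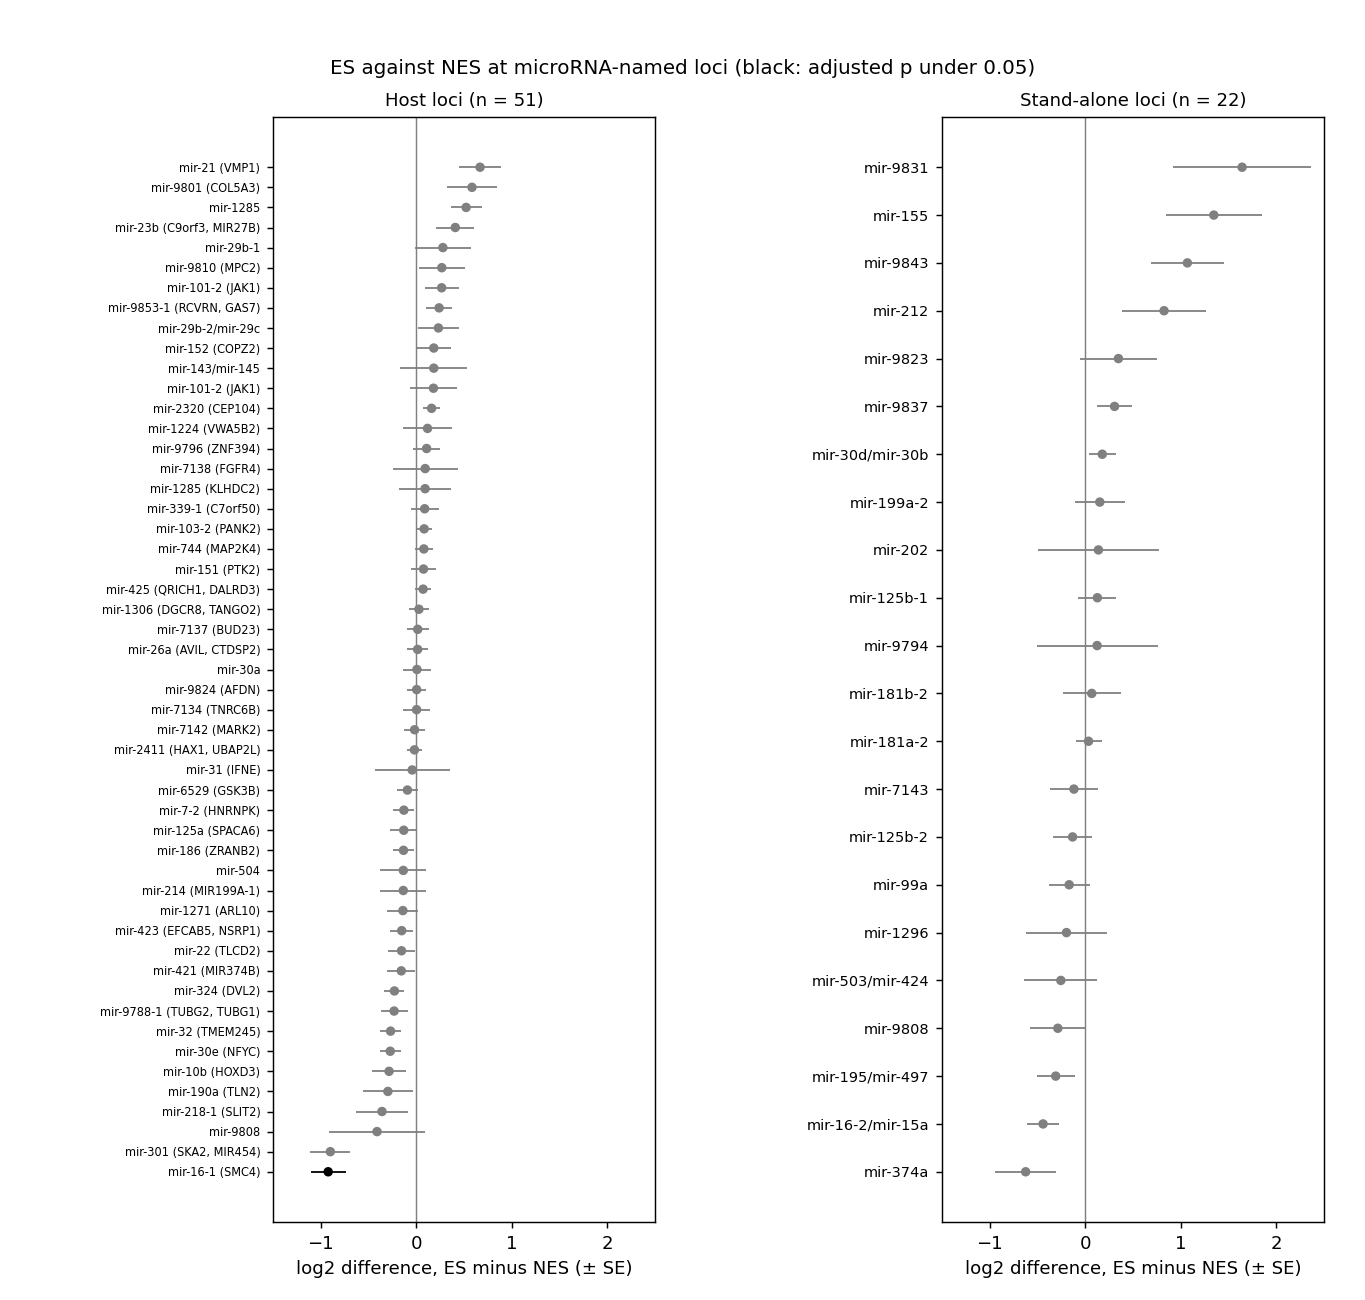
Log2 difference of ES from NES (x axis, point ± SE) at each of the 51 host loci (left) and 22 stand-alone loci (right), ordered by size, with the further gene names in brackets. SMC4 with mir-16-1, the lowest host locus at -0.92, is the 1 locus in black, while mir-9831, mir-155 and mir-9843 have the highest values and wide errors.

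The smallest p-value belonged to a locus that holds microRNAs of the mir-15/16 family, known as repressors of cyclins, and it was the 1 locus called. The SMC4 locus (chromosome 13, 100077867 to 100133166, plus strand) covers the gene of a condensin subunit that compacts chromosomes at mitosis and contains the hairpins MIR15B and MIR16-1. Its level was 44.1, 44.4, 36.9, 41.2, 42.4 and 50.9 CPM in ES1 to ES6 and 116, 65.3, 91.5, 77.6, 94.8 and 47.4 CPM in NES1 to NES6. Every ES library but ES6 lay below every NES library, and NES6 was the low NES library, as it was for the proliferation markers. The ES mean was 43.3 ± 4.58 and the NES mean 82.1 ± 24.1 CPM (SD, n = 6 each), a log2 difference of -0.92 ± 0.18 (SE, adjusted p = 0.0464, edgeR's quasi-likelihood test). A short second locus named SMC4 (834 bases, no strand given) had a log2 difference of -0.79 (adjusted p = 0.128, same test). The call was lost when any 1 library other than NES6 was left out, with adjusted p between 0.0592 and 0.134, and held without NES6 (0.00591). Over all 21 alternatives the adjusted p ran from 5.26e-04 to 0.150 and the log2 difference from -1.04 to -0.79. The part of the proliferation markers in this difference was not tested.

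SKA2 with MIR454 and mir-301 (chromosome 12, 35396569 to 35433299, minus strand) covers the gene of a protein that ties kinetochores to spindle microtubules. ES libraries held 15.4, 13.6, 6.93, 11.3, 14.7 and 17.2 CPM and NES libraries 29.3, 18.9, 29.0, 25.1, 27.2 and 18.1 CPM. It was the 1 kept locus whose groups did not overlap, with each ES library below each NES library, an arrangement found at 0.886% of all loci (1.39% in either direction). No kept locus had every ES library above every NES library, against 0.504% of all loci. The log2 difference at SKA2 was -0.90 ± 0.21 (SE), which missed the threshold in edgeR's quasi-likelihood test (adjusted p = 0.0722). It passed with DESeq2 (adjusted p = 0.00358), with library totals in place of TMM factors, in both limma fits on log2(FPKM) and without NES6, 5 of 21 alternatives. The limma fit with a pseudocount of 0.5 called 2 of the 73 loci, SMC4 and SKA2, against 1.38% of all loci.

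The stand-alone locus of mir-16-2 and mir-15a (chromosome 11, 17731597 to 17759561, plus strand) gave 4.37, 5.33, 7.90, 4.60, 4.94 and 4.99 CPM in ES and 7.69, 6.23, 8.68, 7.71, 7.75 and 5.54 CPM in NES. Every ES library but ES3 lay below every NES library. The log2 difference was -0.44 ± 0.17 (SE) and missed the threshold (adjusted p = 0.233, edgeR's quasi-likelihood test), and without ES3 it was -0.59. Of 9 loci named for microRNAs of cell cycle clusters, a list of the mir-17, mir-106 and mir-15/16 families, these mir-16 loci were the 2 past the minimum, 1 called lower and the other not called. Both had an unadjusted p under 0.05 in edgeR's test, as did 16.5% of all loci. The related mir-195/mir-497 locus had a log2 difference of -0.31 (adjusted p = 0.463, same test), with 4.52 to 9.57 CPM in ES and 7.98 to 12.3 CPM in NES.

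**Figure D2:**
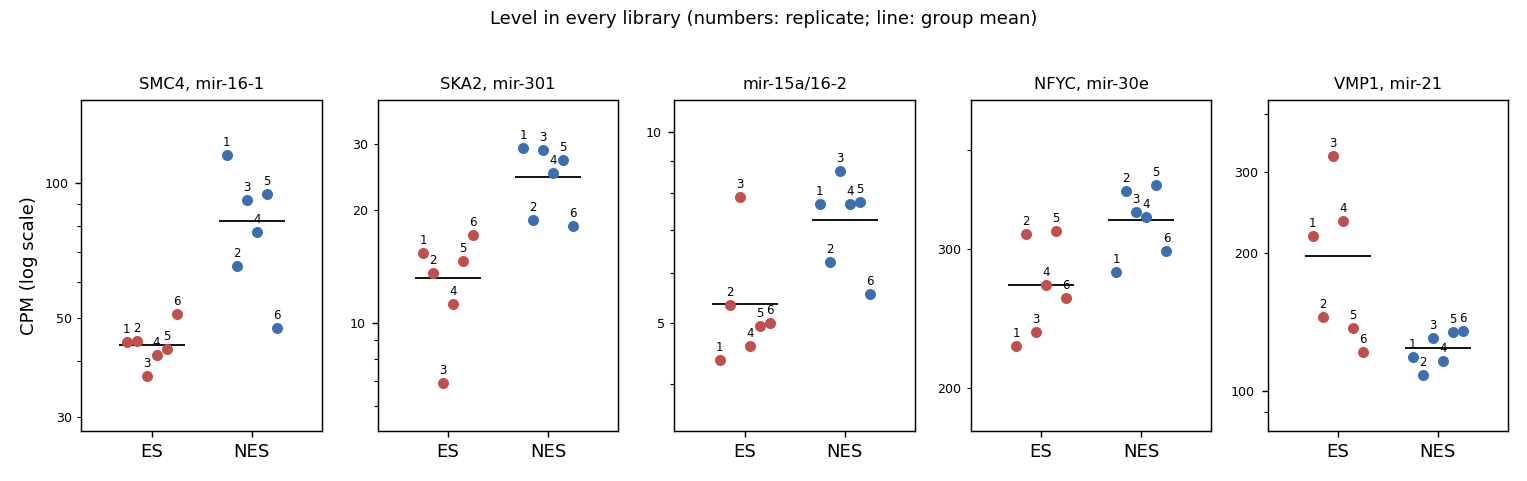
CPM on a log scale in each library at 5 loci, with numbers for replicates and a line at the group mean. At SMC4 the ES libraries sit between 36.9 and 50.9 CPM and all NES libraries but NES6 lie above 65; at SKA2 the groups do not touch; at VMP1 with mir-21 the ES libraries ES1, ES3 and ES4 stand above all others.

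Several widely expressed hosts of mir-30, mir-32 and mir-324 had smaller negative values. NFYC, a subunit of the CCAAT-binding factor NF-Y, hosts MIR30C-1 and MIR30E and ranged over 226 to 316 CPM (median 265) in ES and 281 to 361 CPM (median 331) in NES. Its log2 difference was -0.27 ± 0.11 (SE, adjusted p = 0.245, edgeR's quasi-likelihood test). TMEM245, a transmembrane protein gene that hosts mir-32, ranged over 142 to 199 CPM (median 175) in ES and 179 to 226 CPM (median 207) in NES, a log2 difference of -0.27 ± 0.11 (SE, adjusted p = 0.246). At both loci the groups overlapped. DVL2, a Wnt signalling adaptor named with mir-324 and given here after its values were seen, had a log2 difference of -0.23 (adjusted p = 0.296).

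Among hosts with positive values VMP1 was the largest. VMP1, an endoplasmic reticulum protein needed for autophagy, shares its locus (chromosome 12, 35933140 to 36161377, plus strand) with mir-21, a microRNA known to be induced by luteinising hormone in granulosa cells and in activated macrophages. The locus also carries an Ensembl identifier of the gene RPS6KB1, so its counts may include reads of that gene. The level of this joined locus was 218, 145, 325, 235, 137 and 122 CPM in ES and 119, 108, 131, 116, 135 and 136 CPM in NES. Every ES library but ES6 was above every NES library, and ES3, ES4 and ES1 were far above. The log2 difference of 0.67 ± 0.22 (SE) did not pass (adjusted p = 0.174, edgeR's quasi-likelihood test). It was 0.46 without ES3, the library with the high macrophage markers, and 0.64 without ES1, the library with the high luteal markers. In ES4, at 235 CPM, the sums of macrophage (58.1 CPM) and luteal (501 CPM) markers were the lowest of the ES libraries. The part of either cell type in the VMP1 values was not tested. Of 2 further loci named VMP1, a 62994-base one on the same strand had a log2 difference of 0.89 and the other one of -0.18, neither called. COL5A3, a fibrillar collagen gene named with mir-9801 and given here after its values were seen, differed by 0.58 on that scale and was not called (adjusted p = 0.296).

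The loci with the highest FPKM (the deposited level per transcript length and library size) were those of mir-1285, both on chromosome 1 and also named RF00017, the RNA of the signal recognition particle. The one joined to KLHDC2, a substrate receptor of a ubiquitin ligase, had a mean of 7346 FPKM and the one with an unnamed Ensembl gene 6527 FPKM. They overlap on opposite strands and together took 0.600 to 1.45% of all counts in a library, against 0.886 to 1.26% for the other 71 loci. In CPM the second held 6780, 7682, 5784, 4647, 5860 and 4753 in ES and 3242, 3448, 3492, 5295, 4477 and 4784 in NES. ES1, ES2, ES3 and ES5 exceeded every NES library. Its log2 difference was 0.52 ± 0.16 (SE, adjusted p = 0.164, edgeR's quasi-likelihood test), and DESeq2 called it (adjusted p = 0.0431). The KLHDC2 locus ranged over 4027 to 8057 CPM in ES and 2583 to 8962 CPM in NES, with a log2 difference of 0.09 (adjusted p = 0.905, edgeR), and a separate locus named KLHDC2 alone had means of 29.5 ± 2.55 (ES) and 30.9 ± 1.15 (NES) CPM (SD, n = 6 each). Reads of signal recognition particle RNA copies can be shared between such loci, so these values are uncertain.

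Next by FPKM came the locus of mir-143 and mir-145, microRNAs abundant in smooth muscle, with a mean of 37.5 FPKM. It lay at 1657, 1947, 357, 708, 1373 and 1051 CPM in ES and 1196, 745, 669, 976, 1170 and 1495 CPM in NES. ES3 was the lowest of the 12, ES2 and ES1 the highest, and the groups overlapped. The log2 difference was 0.18 ± 0.35 (SE, adjusted p = 0.841, edgeR's quasi-likelihood test) and slightly negative with limma on FPKM. The remaining host loci lay at or below the 24.4 FPKM of AVIL and CTDSP2 with mir-26a, whose log2 difference was 0.01. Of 9 loci named for endothelial and smooth muscle microRNAs, 5 were kept, 2 with positive and 3 with negative differences, and 0 were called by edgeR or DESeq2 or had an unadjusted p under 0.05. mir-10b with HOXD3 (60.0 to 138 CPM in ES, 104 to 145 CPM in NES) had a log2 difference of -0.29 (adjusted p = 0.452). Smooth muscle markers summed to 1044 to 3620 CPM in ES and 879 to 2306 CPM in NES.

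The largest positive differences were at stand-alone loci, with a wide spread between ES libraries. mir-155, made from the BIC transcript and known from activated immune cells, reached 7.70, 1.57, 2.30, 1.92, 1.04 and 0.746 CPM in ES and 0.957, 1.03, 1.49, 0.810, 0.904 and 0.810 CPM in NES. ES1 to ES4 exceeded every NES library, ES1 by far the most, and ES6 was the lowest of the 12. The log2 difference was 1.35 ± 0.50 (SE, adjusted p = 0.220, edgeR's quasi-likelihood test) and 0.60 without ES1 (adjusted p = 0.334). Macrophage markers summed to 92.5 CPM in ES1 and 48.1 to 122 CPM in NES, and luteal markers to 5198 CPM in ES1. The part of either cell type in the mir-155 values was not tested. Together with mir-21 it made up the 2 kept of 7 loci named for blood and immune microRNAs, both positive and neither called. Both had an unadjusted p under 0.05 in edgeR's test, as did 16.5% of all loci.

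mir-9843, which lies within the sphingomyelin synthase gene SGMS2, gave 24.3, 7.59, 9.71, 33.3, 10.6 and 8.10 CPM in ES and 6.19, 4.96, 7.92, 9.72, 9.91 and 5.92 CPM in NES. ES4 and ES1 were high, and the other 4 ES libraries lay within or just above the NES range. The log2 difference of 1.07 ± 0.38 (SE) did not pass (adjusted p = 0.205, edgeR's quasi-likelihood test) and was 0.70 without ES4. mir-9831, on a 116556-base locus of chromosome 1, spanned 53.8-fold in ES, with 1256, 536, 23.3, 273, 137 and 287 CPM, and 4.86-fold in NES, with 224, 50.3, 68.2, 97.0, 122 and 244 CPM. ES1, ES2, ES4 and ES6 exceeded every NES library, ES1 was the highest and ES3 the lowest of the 12. Its log2 difference was 1.64 ± 0.72 (SE, adjusted p = 0.277) and 0.91 without ES1. mir-374a on the X chromosome ran the other way, with 0.552 to 1.88 CPM in ES, 1.20 to 2.19 CPM in NES and a log2 difference of -0.62 (adjusted p = 0.352).

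**Figure D3:**
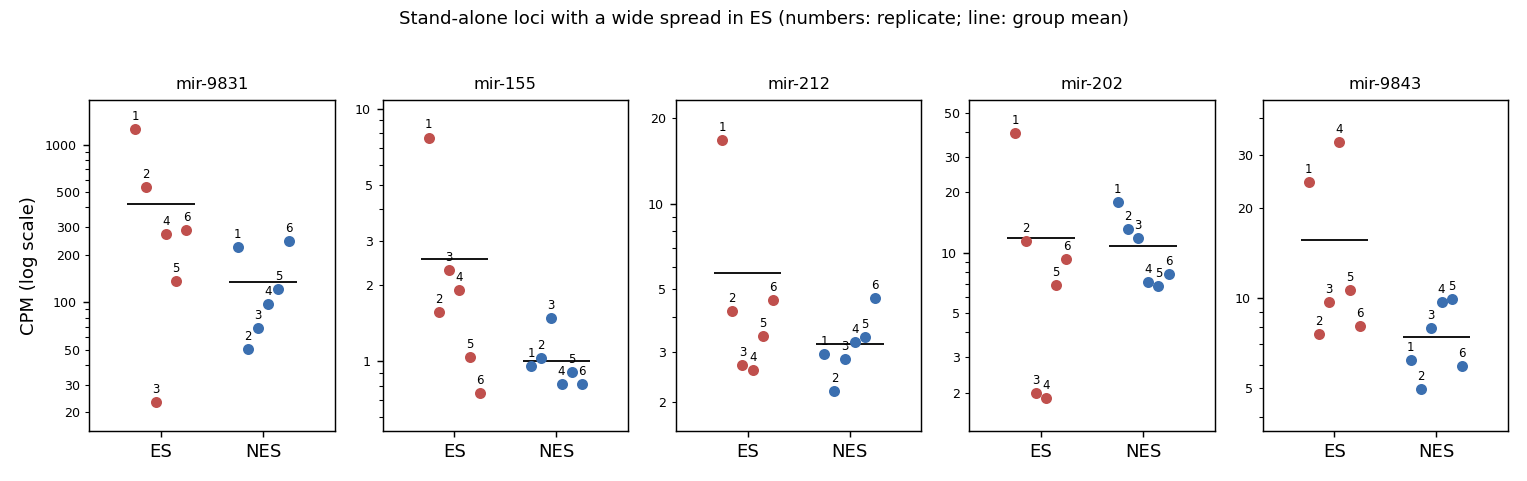
CPM on a log scale in each library at 5 stand-alone loci, with numbers for replicates and a line at the group mean. ES1 is the highest of the 12 libraries at mir-9831, mir-155, mir-212 and mir-202, and second to ES4 at mir-9843. At mir-9831 and mir-155, 4 of the 6 ES libraries lie above every NES library, and at mir-212 and mir-202 ES1 alone does.

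Ovarian microRNAs showed no shared direction. Of 23 loci named for microRNAs linked to the ovary or to gonadotrophins, 8 were kept, 4 with positive and 4 with negative differences, and 0 were called by edgeR or DESeq2 or had an unadjusted p under 0.05. mir-212, paired with mir-132 in a cluster known to respond to luteinising hormone, held 16.7, 4.17, 2.70, 2.60, 3.41 and 4.58 CPM in ES and 2.96, 2.19, 2.84, 3.26, 3.38 and 4.65 CPM in NES. ES1 alone exceeded the NES range. The log2 difference was 0.83 (adjusted p = 0.370, edgeR's quasi-likelihood test), and 0.12 without ES1.

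mir-202, a microRNA known mainly from gonads, had the highest FPKM of the stand-alone loci (mean 10.1). Its level was 39.6, 11.4, 1.99, 1.88, 6.87 and 9.32 CPM in ES and 17.8, 13.1, 11.9, 7.11, 6.83 and 7.86 CPM in NES. ES1 was the highest and ES3 and ES4 were the lowest of the 12. The theca markers were also lowest in ES3 (113 CPM) and ES4 (297 CPM), with at least 697 CPM in each NES library. At the upper end their sum differed from mir-202, with the highest sum in ES6 (1908 CPM) and 1013 CPM in ES1. Most of the ES6 sum came from LHCGR (1203 CPM) and CYP17A1 (564 CPM). INSL3, HHIP, GLI1 and PTCH1 each lay below every NES library in ES6. The granulosa markers summed to 1750 CPM in ES4, against 997 to 3252 CPM in NES, but INHA gave 1531 CPM of the ES4 sum. In ES4 FSHR, INHBA, INHBB, CYP19A1, FST and FOXL2 each lay below every NES library, and GATM lay within the NES range. The part of cell make-up in the mir-202 values was not tested. The log2 difference was 0.14 ± 0.63 (SE, adjusted p = 0.941, edgeR's quasi-likelihood test) and -0.77 without ES1.

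The next stand-alone loci by FPKM were the 81-base locus of mir-9808 (8.48 FPKM, 0.471 to 1.27 CPM in ES and 0.713 to 1.34 CPM in NES) and mir-99a (7.95 FPKM). mir-99a, with 15.0 to 35.0 CPM in ES and 23.3 to 32.2 CPM in NES, had a log2 difference of -0.17 (adjusted p = 0.747, edgeR's quasi-likelihood test). Its neighbour mir-125b-2 on chromosome 13 had -0.13 and mir-125b-1 on chromosome 9 had 0.13, neither called. Other pairs of loci with the same microRNA name were the 2 of mir-101-2 with JAK1, on opposite strands (0.27 and 0.18), mir-29b-1 and mir-29b-2/mir-29c (0.28 and 0.23), and the short mir-9808 locus and the one joined with RF00026 (-0.29 and -0.41), none called.

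Lists for other themes were thinly covered. Of 18 loci for microRNAs linked to lipid and metabolic genes, 8 were kept, 3 positive and 5 negative, and the 1 called lower was SMC4 with mir-16-1 again, whose host acts in mitosis. Of these 8, 3 had an unadjusted p under 0.05 in edgeR's test, against 16.5% of all loci. 0 of 4 loci for epithelial microRNAs and 0 of 3 for microRNAs of imprinted regions reached the minimum, so nothing can be said of them at this depth.

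The proteins that make and use microRNAs were examined next, and their differences were small. Of 50 listed genes 40 were measured at a locus of their own, with 16 positive and 24 negative differences, a median of -0.05 and a range of -0.40 to 0.25 on the log2 scale. Of the 40, 0 were called by edgeR's quasi-likelihood test, against 0.63% of all loci. An unadjusted p under 0.05 in that test occurred at 6 of the 40, against 16.5% of all loci. DROSHA, the nuclear hairpin cutter, held 13.3 to 16.1 CPM (median 14.7) in ES and 15.3 to 19.8 CPM (median 17.4) in NES, and its log2 difference was -0.23 (adjusted p = 0.282). The groups overlapped. DGCR8, its partner, was counted in a locus joined with TANGO2, MIR3618 and mir-1306, itself a kept host locus, with a log2 difference of 0.03.

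XPO5, the export receptor, differed by -0.21 (adjusted p = 0.647). DICER1, the trimming enzyme, held 255 ± 31.8 (ES) and 254 ± 26.6 (NES) CPM (SD, n = 6 each), and AGO2, the slicing Argonaute, 432 ± 152 and 421 ± 38.4 CPM, with log2 differences of 0.01 and 0.04. ES1 was the highest of the 12 libraries for AGO2 (735 CPM), and the AGO2 difference was -0.18 without it. The smallest p-values belonged to HNRNPA2B1, a reader of primary transcripts, which ranged over 197 to 263 CPM in ES and 263 to 300 CPM in NES. Its log2 difference was -0.25 (adjusted p = 0.187, edgeR's quasi-likelihood test), and it was the 1 gene DESeq2 called (adjusted p = 0.040). Over all loci DESeq2 called 4.92%. TUT4, HNRNPA1 and TUT7, the first and last of which add uridines to small RNAs and their precursors, followed with -0.31, -0.34 and 0.25, none called. TNRC6B, a scaffold of the silencing complex that also hosts mir-7134, had a difference of 0.00.

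Like most loci of the series, the kept loci varied more between ES than between NES ovaries. The SD of log2(CPM + 0.5) was larger in ES at 60 of the 73 loci (82.2%) and at 74.6% of all loci. The median SD was 0.329 in ES and 0.219 in NES, against 0.354 and 0.243 over all loci. The highest and lowest ES library differed by over 3-fold at 16 of the kept loci, and the NES libraries at 6. These counts were not made over all loci. ES3 was the lowest of the 12 libraries at 20 loci (27.4%, against 18.3% of all loci), and ES1 was the lowest at 15 (20.5%, against 15.7%) and the highest at 14 (19.2%, against 13.3%).

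**Figure D4:**
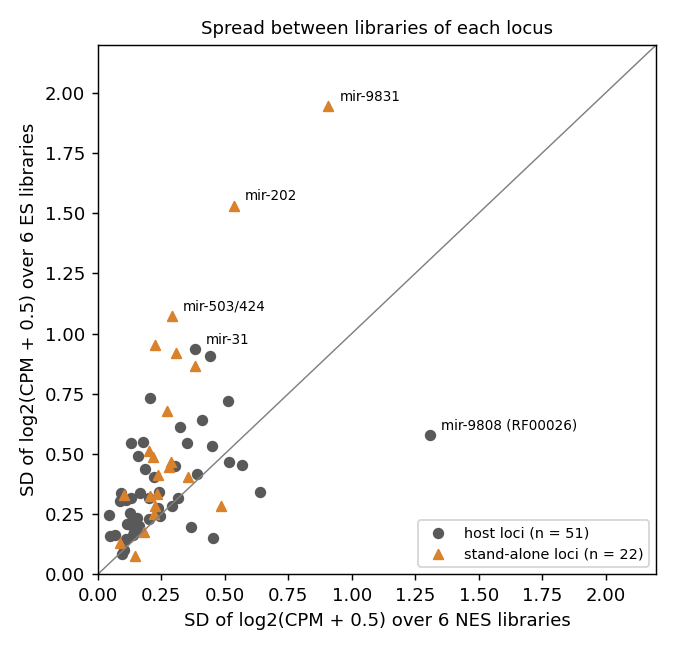
SD of log2(CPM + 0.5) over the 6 NES libraries (x axis) and the 6 ES libraries (y axis) for each host locus (circles) and stand-alone locus (triangles), with the line of equality. Of the 73 loci 60 lie above the line, mir-9831 and mir-202 the farthest, while the mir-9808 locus joined with RF00026 lies well below it.

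At some loci with small group differences the ES libraries lay on both sides of the NES range, among them a pair given here after their values were seen. mir-503 and mir-424, X-linked microRNAs of the mir-15/16 seed family, held 66.4, 46.0, 7.41, 20.5, 29.6 and 35.5 CPM in ES and 32.0 to 49.0 CPM (median 42.5) in NES. ES1 was the highest and ES3 the lowest of all. The log2 difference was -0.25 (adjusted p = 0.789, edgeR's quasi-likelihood test), and it was -0.55 without ES1 and -0.05 without ES3. mir-31 with IFNE, an epithelial interferon gene, held 1079 CPM in ES1 and 189 to 532 CPM in the other ES libraries, against 298 to 650 CPM in NES, with a log2 difference of -0.04 that became -0.55 without ES1.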

How the data were processed

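Per the labels' protocols, Trizol RNA from the ovaries of 6 ES and 6 NES gilts was freed of ribosomal RNA and turned into dUTP (strand-specific) libraries. Tools in the submitters' processing notes are HISAT2, TopHat, FastQC and cutadapt, with the build Sscrofa11.1. Which program counted reads, with what strand setting and annotation, is not given in the sources used here, so overlapping and antisense loci may share reads. For each locus and library the authors deposited a count and an FPKM value, per the file headers.

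Counts were tested with edgeR's quasi-likelihood test (TMM factors, no covariate) on loci with a mean of 10 or more counts. P-values were adjusted by Benjamini-Hochberg over 23818 loci and called under 0.05. CPM use TMM factors. Alternatives were DESeq2, limma on log2(FPKM + 0.5 or 0.1), other scalings and filters, a replicate block and leaving out libraries. The fits were tested on simulated data. There edgeR called 0 of 50 loci changed 1.5-fold, 18 of 50 changed 2-fold and 36 of 50 changed 4-fold. A locus not called here can therefore still differ. The simulated libraries were independent, without kinship, and had the same spread in both groups. In the data the SD was larger in ES at 74.6% of all loci, so the recovery there may differ. Named loci were mir-130b, the 6 smallest p and the 3 highest FPKM in each class, and up to 2 per microRNA list; others were chosen after their values were seen, or belong to a list or pair. Members and lists were chosen with earlier results of these data known. RefSeq hairpins and genes (Sscrofa11.1) were matched by position. Fits used DESeq2 1.42.0, edgeR 4.0.16 and limma 3.58.1 in R 4.3.3, and summaries numpy 2.4.6, pandas 2.3.3 and matplotlib 3.10.9 in Python 3.11.15.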

Additional observations from a re-analysis of the deposited data

Results flagged for a closer look

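In 3 of 38 groups of 6 libraries examined (19 named loci, both groups), a library lay far from the others on the log2(CPM + 0.5) scale; chance alone picks out about 1 group in 20. At mir-212 the library ES1 held 16.7 CPM and the nearest, ES6, 4.58. At mir-16-2/mir-15a the library ES3 held 7.90 CPM and the nearest, ES2, 5.33. At mir-155 the library NES3 held 1.49 CPM and the nearest, NES2, 1.03.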

How the results depend on the processing

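The 150 loci called over all became 1171 with DESeq2, 348 with library totals, 324 and 329 with limma on FPKM at pseudocounts of 0.1 and 0.5, 28 without a filter, and 0 to 402 with 1 library left out. The 1 microRNA-named locus called became 3 with DESeq2, 2 with library totals and with both limma fits, 0 with median-of-ratios size factors and without a filter, and 0 to 2 with 1 library left out. The fit without ES3 and ES6 together, chosen after seeing the data, called 1 locus over all and 0 named ones. Processing genes called were 0 in all alternatives but DESeq2 (1). With the replicate number as a block, 2 loci over all and 0 microRNA-named loci were called. Same-numbered libraries correlated at -0.05 to 0.25, and 5 of 12 fitted best with their own number. These values do not settle whether the numbers mark litters, and the sources used here do not say so. The main test used no pairs and treated all libraries as independent, so the kinship of full sisters is not modelled in it. At the 19 named loci, 366 of 398 alternative values kept direction and side of the threshold. Values that turned sign were KLHDC2/mir-1285 (-0.056 without ES3 and ES6, -0.047 to 0.32 with 1 library left out), mir-143/mir-145 (-0.047 and -0.044 with limma at 0.1 and 0.5, -0.017 to 0.37 with 1 left out), mir-202 (-0.61 and -0.54 with limma, -0.50 with the block, -0.77 to 0.36 with 1 left out) and mir-99a (0.0051 without ES3 and ES6). The cause was not tested. Of the named loci, 136 fell under the minimum and were not tested, 135 of them of at most 150 bases.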
